A study of Mus musculus with 9 samples.

Results

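Cd52, Lyz2 and Lyz1 are 3 of the 31053 genes counted in CD11b-sorted cells of the adult mouse brain, and were followed here through every cell class, condition and library of the series. They were chosen by their level in D0 against Ctrl myeloid cells, in which Cd52 had shown a steady rise, and the lysozymes were listed with it. The D0 and Ctrl levels of the 3 genes in myeloid cells are therefore given as a description without a test. The cells came from female C57BL/6 mice (C57BL/6J in the study's methods) 5 months old in all 3 groups. Ctrl mice were untreated and gave 3 libraries of 1 brain each. D0 mice were fed PLX5622, an inhibitor of the receptor CSF1R on which microglia depend, at 1200 mg/kg of diet for 14 days, and gave 3 libraries of 2 pooled brains each. D2 mice received the same diet and then 2 days of control diet, and also gave 3 libraries of 2 pooled brains. Brains were perfused and digested at warm temperature without the cerebellum, and live CD11b+ cells were sorted, so that cells of other classes were present only as far as the gate let them through. Since mice were pooled within D0 and D2 libraries, the spread between libraries is not the spread between mice.

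Cd52 encodes a very short glycoprotein that is tied to the outer membrane of lymphocytes and myeloid cells by a glycosylphosphatidylinositol (GPI) anchor, and its released form can bind the inhibitory sialic acid receptor Siglec-10. Lysozymes hydrolyse the peptidoglycan of bacterial cell walls. In the mouse, Lyz2 encodes lysozyme M of macrophages, monocytes and neutrophils, which is why its locus is widely used to drive Cre in myeloid cells, and Lyz1 encodes lysozyme P, known from the Paneth cells of the gut.

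The unit of all levels below is UMIs per 1000000 UMIs of the summed cells (CPM), where a UMI is a tag that counts each captured transcript once. The 9 libraries held 20257894 to 61230741 UMIs in 2875 to 5721 barcodes, and any pair of libraries shared between 0 and 7 barcodes, at most 0.221% of the smaller library. Cells with 500 to 20000 UMIs were clustered without the 3 genes, and clusters were named from marker genes. The study left out D2-3, and D2-3 stood apart here too: it held 641 microglia-like cells beside 529 monocyte-like cells, against 1547 to 3738 and 11 to 130 in the other libraries. Of those 641 cells, 88.8% were in the cluster led by the mitotic genes Top2a and Mki67, against 7.58% to 16.9% in the other D0 and D2 libraries, and their summed level of 10 microglia markers was 8161 CPM. Means and tests below use the other 8 libraries, and D2-3 is given beside them. The border-associated macrophage-like cluster went against its name in D0-1 and D2-2, where 65 of 73 and 17 of 20 of its cells had UMIs of fewer than 2 of the 4 genes Mrc1, Pf4, F13a1 and Cbr2. These cells were called by the cluster's name only with that limit. The microglia-like cells expressed all 10 microglia markers in the list, with a summed level of 25700 to 30610 CPM in Ctrl libraries, 18540 to 20360 CPM in D0 libraries and 15790 to 16150 CPM in the 2 D2 libraries. Of the 10 markers, 6 fell in D0 and 8 fell in D2 by edgeR's quasi-likelihood test with Benjamini-Hochberg adjustment over 12408 genes.

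All 3 genes lie on the minus strand of GRCm38 and are protein coding in GENCODE vM21. Cd52 (ENSMUSG00000000682) is at chr4:134082448-134095082, and its first listed transcript has 514 bases in 2 exons, of which 222 are coding. Lyz2 (ENSMUSG00000069516) is at chr10:117277331-117282321 and Lyz1 (ENSMUSG00000069515) at chr10:117287797-117292868, with 5475 bases between them. Each lysozyme transcript has 4 exons, and the Lyz1 transcript of 1263 bases and the Lyz2 transcript of 1316 bases were identical at 1211 of 1262 aligned bases (95.96%). In the last 500 bases, the end that a 3' library reads, 15 of 411 windows of 90 bases of either gene were also found whole in the other, and of 451 windows of 50 bases 80 of Lyz1 and 76 of Lyz2 were. A read from such a window cannot be assigned to 1 of the 2 genes, so that the split of UMIs between Lyz1 and Lyz2 is uncertain. The transcripts were more alike than the bases upstream of them. The stretches before each GENCODE start are shown because these 2 neighbours were counted at very different levels in microglia-like cells. They are from the RefSeq promoter table of GRCm38, read 5′ to 3′ on the minus strand at chr10:117282322-117282522 for Lyz2 (201 bases) and chr10:117292869-117293118 for Lyz1 (250 bases), and capitals mark bases that had no identical partner when the 2 stretches were aligned with each other.
Lyz2: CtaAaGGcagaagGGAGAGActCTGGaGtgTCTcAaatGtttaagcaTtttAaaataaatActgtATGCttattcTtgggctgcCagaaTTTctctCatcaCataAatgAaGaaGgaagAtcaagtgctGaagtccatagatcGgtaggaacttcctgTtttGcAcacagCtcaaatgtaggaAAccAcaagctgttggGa
Lyz1: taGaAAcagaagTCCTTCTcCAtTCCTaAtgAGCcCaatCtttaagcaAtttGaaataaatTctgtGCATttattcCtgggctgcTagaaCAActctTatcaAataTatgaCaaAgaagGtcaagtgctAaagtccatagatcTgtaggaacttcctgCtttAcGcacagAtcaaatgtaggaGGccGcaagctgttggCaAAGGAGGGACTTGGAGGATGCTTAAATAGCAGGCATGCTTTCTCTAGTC
The alignment paired 151 identical bases, which are 75.12% of the Lyz2 stretch and 60.4% of the Lyz1 stretch. The last 49 bases before the Lyz1 start had no counterpart in the shorter Lyz2 stretch.

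Cd52 was about 3 times higher in microglia-like cells of D0 and D2 mice than in those of Ctrl mice. Its level was 294 CPM, 272.9 CPM and 331.2 CPM in Ctrl-1 to Ctrl-3, a mean of 299 ± 29.5 (SD, n = 3). It was 894.6 CPM, 935.7 CPM and 1004 CPM in D0-1 to D0-3, a mean of 945 ± 55.4 (SD, n = 3). The 2 D2 libraries had 954.8 CPM and 961.4 CPM. Every D0 and D2 library was thus above every Ctrl library, and the D2 values lay inside the range of D0. The D0 mean was 3.16 times and the D2 mean 3.20 times the Ctrl mean, and the fitted log2 fold changes against Ctrl were 1.86 for D0 and 1.79 for D2. These are the values that chose the gene or that share its Ctrl libraries, so no test is given. Across all genes, edgeR called 12.3% higher and 7.43% lower in D0 than in Ctrl, and nothing about Cd52 is read from its place among them. In D2-3, where most microglia-like cells were mitotic, Cd52 was 2179 CPM, above all other libraries, and 2090 CPM in the 54 cells that were not mitotic, that is with UMIs of fewer than 2 of 8 mitotic genes. The cells compared were not of the same make-up in each group. The 3 clusters with P2ry13 among their leading genes held 44.1% to 69.0% of microglia-like cells in Ctrl libraries, 2.15% to 15.2% in D0 libraries and 0.517% to 0.818% in D2-1 and D2-2. Within the 10 clusters that had at least 20 cells in 2 or more libraries of both groups, the D0 mean of Cd52 was 1.34 to 2.64 times the Ctrl mean, with a median of 1.99 times. How far the make-up carries the difference over all microglia-like cells was not tested.

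Lyz2 was also higher in the microglia-like cells of D0 and D2, with a wider spread between libraries than Cd52. It was 393.2 CPM, 382.6 CPM and 387.3 CPM in the 3 Ctrl libraries, a mean of 388 ± 5.28 (SD, n = 3). The D0 libraries had 1062 CPM, 929 CPM and 797.7 CPM, a mean of 930 ± 132 (SD, n = 3) and 2.40 times that of Ctrl. The D2 libraries had 937.8 CPM and 1429 CPM, and the higher of them was above every D0 library. Lyz2 ran in the opposite order to Cd52 over the D0 libraries, being highest in D0-1, where Cd52 was lowest. The comparisons of D2 with Ctrl and with D0 share libraries with the contrast that chose the genes, so no test is given for the 3 genes there either. In D2 against Ctrl the log2 fold change of Lyz2 was 1.72 ± 0.185 (SE), and 10.8% of all genes were called higher and 7.73% lower by edgeR in that comparison. Over all kept myeloid cells in place of microglia-like cells this difference was 0.92, and with D2-3 it was 1.345. In D2-3 itself Lyz2 was 248.3 CPM, below every Ctrl library, and 536 CPM in its 54 cells that were not mitotic. In D2 against D0 the log2 difference was 0.26 ± 0.186 (SE). Within the same 10 clusters, the D0 mean of Lyz2 was 0.886 to 2.94 times the Ctrl mean, with a median of 2.21 times. The lowest ratio was that of the cluster led by Egr1, Chst2 and Ier2, where Ctrl-1 had 1954 CPM. No gene was called in D2 against D0 by edgeR (0% higher and 0% lower, with 839 genes at an unadjusted p under 0.05), while DESeq2 called 10 higher and 17 lower.

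**Figure D1:**
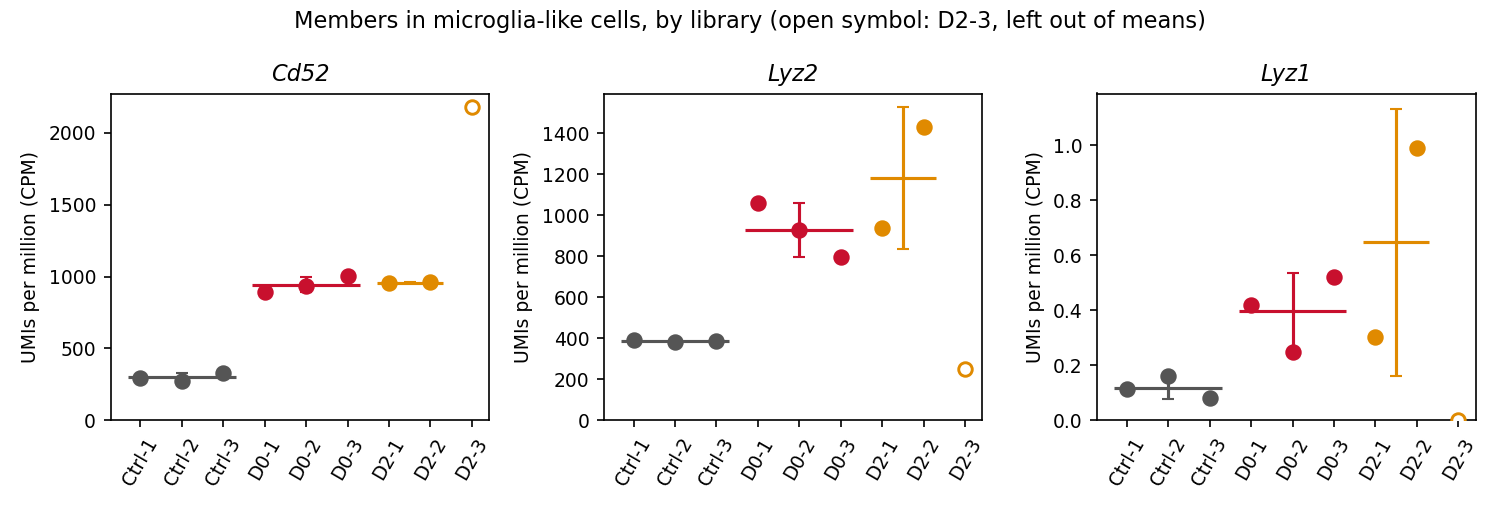
Level of Cd52, Lyz2 and Lyz1 (CPM, linear axes from 0) in the microglia-like cells of each library, with the mean and SD of each group as lines and D2-3, which is in no mean, as an open symbol. The Ctrl libraries lie at 272.9 to 331.2 CPM for Cd52 and every D0 and D2 library lies above them; in D2-3 Cd52 is highest and Lyz2 lowest.

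Lyz1 was near the limit of detection in microglia-like cells. It had 3, 3 and 2 UMIs in the Ctrl libraries, 8, 9 and 10 in the D0 libraries, 6 and 12 in the D2 libraries and 0 in D2-3. Each of the 53 UMIs in 22142 cells of the 8 libraries was in a separate cell. The log2 fold change in D2 against Ctrl was 2.44 ± 0.694 (SE), and rested on 8 UMIs of Ctrl and 18 of D2. With the replicate number as a block it was 2.505, and without D2-2 it was 1.44. In D2 against D0 the log2 difference of Lyz1 was 0.56 ± 0.595 (SE).

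At equal depth, the higher level went with more cells in which the transcript was found. Each cell was thinned to 2000 UMIs, and 472 shallower cells of Ctrl, 316 of D0 and 399 of D2 were left out. Cd52 was found in 38.03%, 35.98% and 43.96% of microglia-like cells in the Ctrl libraries, in 63.76%, 69.16% and 74.97% in the D0 libraries, and in 69.77% and 65.21% in the D2 libraries. Lyz2 was found in 43.19%, 44.60% and 45.99% of Ctrl cells, in 80.15%, 77.31% and 72.95% of D0 cells, and in 75.52% and 87.21% of D2 cells. The Wilson 95% intervals of single libraries were at most a few percentage points wide and cover counting error only. Without thinning, the Cd52 shares of Ctrl libraries were 67.67% to 75.80%, those of D0 libraries 80.29% to 94.18% and those of D2 libraries 82.29% to 83.22%, at median depths of 6466 to 7868 UMIs (Ctrl), 5330 to 10440 UMIs (D0) and 5662 to 6891 UMIs (D2). Endothelial-like cells, which are no leukocytes, served as the background of free RNA. At 2000 UMIs they were positive for Cd52 in 0% to 11.6% and for Lyz2 in 0% to 11.6% of cells per library, with median depths of 3598 to 7663 UMIs before thinning. Every microglia-like share was above that range. Most positive Ctrl cells had a single UMI, and 3 or more Cd52 UMIs were in 3.59% to 3.77% of cells, against 21.0% to 27.0% in D0 and 22.3% to 25.2% in D2. Lyz1 at 2000 UMIs was found in 1 of 8444 Ctrl cells, 5 of 8306 D0 cells and 6 of 4205 D2 cells.

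Cd52 was found in more cells in D0 than in Ctrl, as given above. The tenth of cells with the most Cd52 held 40.8% to 48.1% of its UMIs in Ctrl and 31.8% to 36.3% in D0. This share falls as the mean rises, so it does not show that the UMIs were spread more evenly in D0. The variance of Cd52 UMIs over cells was 1.28 to 1.43 times the mean in Ctrl and 1.82 to 2.02 times the mean in D0, a ratio that itself depends on the mean. For Lyz2 the ratio was 1.49 and 1.61 in 2 of the Ctrl libraries and 5.54 in Ctrl-1, where 1 cell had 96 Lyz2 UMIs of its 2000. Both transcripts were found in 17.6% to 21.6% of Ctrl cells, where independent detection would give 16.05% to 20.2%. In D0 both were found in 51.0% to 54.2% of cells, and independent detection would give 51.1% to 54.7%. Over single cells, the Pearson correlation of Cd52 and Lyz2 was 0.0621 to 0.110 in Ctrl and -0.0255 to 0.0506 in D0 (1730 to 3654 cells a library at the same depth). In D0, cells with one transcript were thus found about as often with the other as cells without it.

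**Figure D2:**
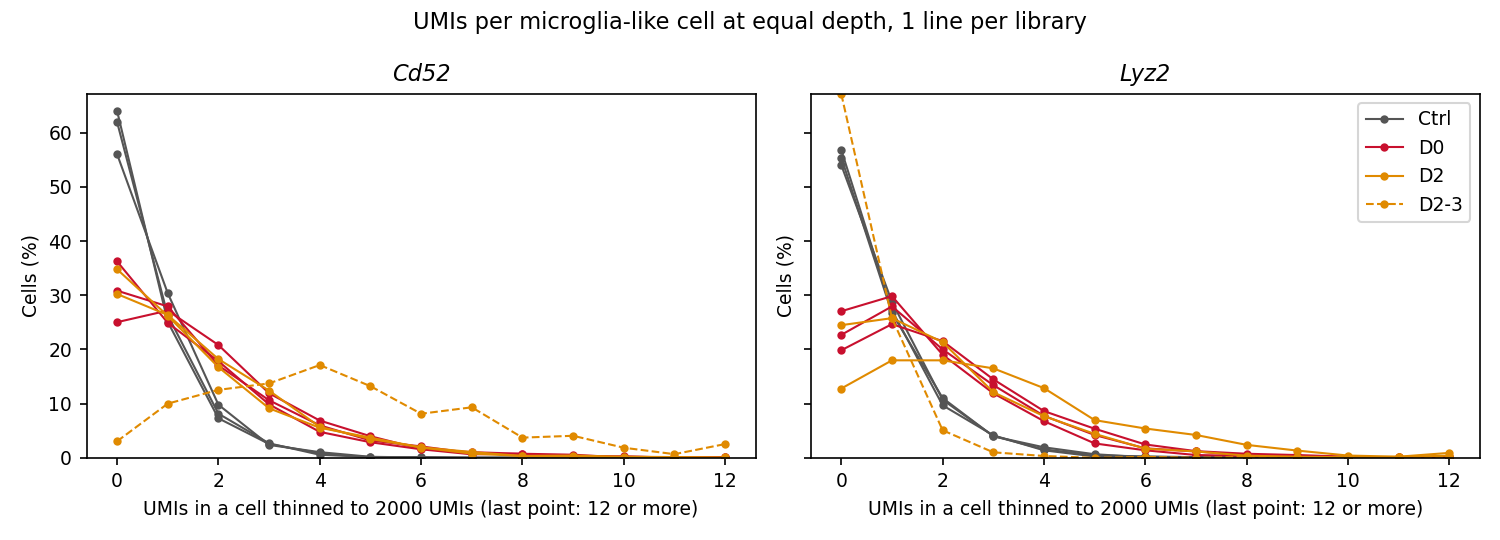
Percentage of microglia-like cells (vertical axis) with a given number of Cd52 or Lyz2 UMIs (horizontal axis) after each cell was thinned to 2000 UMIs, with 1 line per library and D2-3 dashed. The Ctrl lines start at 56.0% to 64.0% of cells without Cd52 and fall steeply, while the D0 and D2 lines start at 25.0% to 36.2% and run on to higher numbers.

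Within clusters of microglia-like cells, named here by their leading genes, Cd52 differed among clusters of the same condition as well as between conditions. Among the lowest clusters were one led by genes of resting microglia and one led by immediate early genes. The cluster led by P2ry13, Sox4 and Gadd45g had 255.3 to 331.5 CPM of Cd52 in Ctrl and 434.8 to 492.1 CPM in D0. The cluster led by Klf2, Fosb and Egr1 had 200.8 to 286.4 CPM in Ctrl and 380.7 to 461.6 CPM in D0. Among the highest levels were those of the cluster of interferon response genes led by Ifit3, Ifit2 and Isg15, with 525.1 to 762.9 CPM in Ctrl and 1223 to 1411 CPM in D0, and of the cluster led by the mitotic genes Top2a and Mki67, with 1181 to 1390 CPM in D0 and 1188 to 1240 CPM in D2. The cluster led by Ccl12 with the replication genes Mcm2 to Mcm6 had 432.4 to 498 CPM in Ctrl and 1019 to 1503 CPM in D0. The cluster with the cytokine genes Tnf, Il1a and Il1b had 503.2 to 504.4 CPM in Ctrl, 1069 to 1275 CPM in D0 and 1150 to 1320 CPM in D2. Of the clusters with at least 20 cells in 2 or more libraries of both Ctrl and D0, only the one led by Bank1, Ecscr and Khdrbs3 had overlapping Cd52 values, 253.8 to 306.4 CPM in Ctrl and 218.7 to 490.2 CPM in D0.

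Lyz2 was arranged differently over the same clusters. In Ctrl it was 269.3 to 335.2 CPM in the cluster led by Klf2 and 574.1 to 874.8 CPM in the cluster led by Igf1, Arg1 and Npnt. In D0 the same 2 clusters had 708.1 to 866.3 CPM and 1059 to 1157 CPM. The cluster led by Top2a, among the highest for Cd52, had the lowest mean of Lyz2 among the D0 clusters, with 561.7 to 660 CPM, and the cluster led by Ccl12 had 597.1 to 874.4 CPM. D2 levels of Lyz2 were above those of D0 in the cluster led by Slc8a1 (1349 to 1695 CPM against 845.9 to 1061 CPM) and in that led by Igf1 (1384 to 1623 CPM against 1059 to 1157 CPM), and these cluster differences were not tested. The cluster led by Egr1, Chst2 and Ier2 had 482.6 CPM of Lyz2 in Ctrl-3 and 1954 CPM in Ctrl-1. In Ctrl-1, Lyz2 was found in 54.9% of the cells of this cluster at 2000 UMIs. Of the 10416 Lyz2 UMIs of microglia-like cells in Ctrl-1, 893 were in 1 cell. Whether that cell carries the value of 1954 CPM was not tested.

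**Figure D3:**
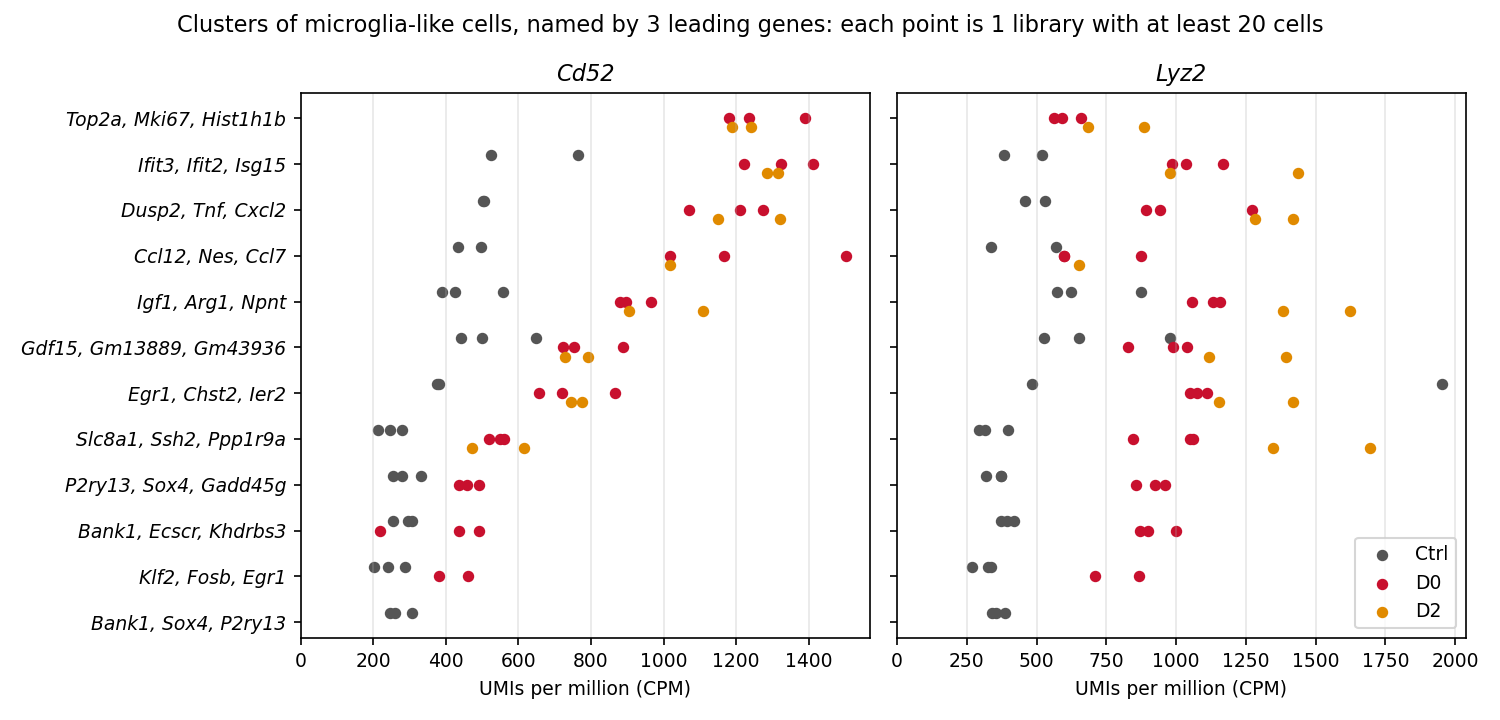
Level of Cd52 and Lyz2 (CPM, linear axes) in each cluster of microglia-like cells, where each point is 1 library with at least 20 cells and clusters are named by their first 3 leading genes. The cluster led by Top2a lies at 1181 to 1390 CPM for Cd52 and at 561.7 to 660 CPM for Lyz2 in D0, high for the first gene and low for the second.

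The levels were also compared within libraries between mitotic and other cells, and between cells with and without 2 genes of the study's cell states. The mitotic split draws on the same cells as the cluster led by Top2a and is no independent check of that cluster's levels. Cells with UMIs of at least 2 of 8 mitotic genes were compared with the other microglia-like cells of the same library, at 2000 UMIs per cell, in the 3 D0 and 2 D2 libraries, since Ctrl libraries held only 2 to 6 such cells. Cd52 was higher in mitotic cells of 5 of 5 libraries, by 1.404 to 1.84 times, with 1306 CPM against 709.3 CPM in D0-1 and 1226 CPM against 873 CPM in D0-3 as the extremes. Its log2 difference was 0.69 ± 0.0885 (SE) with an edgeR adjusted p of 9.19e-07. Lyz2 was lower in mitotic cells of 5 of 5 libraries, at 0.568 to 0.688 times the level of the other cells, and its log2 difference was -0.65 ± 0.0897 (SE) with an adjusted p of 2.99e-06. Of all genes tested in this split, 19.2% were called higher and 15.2% lower. Without mitotic cells, the D0 mean of Cd52 was 2.88 times and that of Lyz2 2.57 times the Ctrl mean.

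Cd74 encodes the invariant chain that carries MHC class II molecules. Microglia-like cells with a Cd74 UMI had more Cd52 and more Lyz2 than cells without one in 8 of 8 libraries, by 1.12 to 1.59 times and 1.01 to 2.17 times. For Lyz2 the ratio was 1.43 to 2.17 in Ctrl libraries and 1.01 to 1.23 in D0 and D2 libraries, while the fit gives 1 difference over all. The part of free RNA or doublets in these ratios was not tested. The log2 differences were 0.54 ± 0.0398 (SE) with an edgeR adjusted p of 1.01e-17 for Cd52 and 0.37 ± 0.0511 (SE) with an adjusted p of 7.37e-08 for Lyz2, in a split that called 3.97% of genes higher. Lgals3, which encodes the galectin MAC2 that the study used to mark its resistant microglia, gave smaller groups of 8 to 111 positive cells per library. In the 5 D0 and D2 libraries with at least 20 positive cells, Cd52 was 1.19 to 1.52 times and Lyz2 1.05 to 1.70 times higher in them. Over 8 libraries the log2 differences were 0.48 ± 0.132 (SE) with an adjusted p of 0.0074 for Cd52 (higher in 7 of 8 libraries) and 0.70 ± 0.129 (SE) with an adjusted p of 3.35e-06 for Lyz2 (higher in 8 of 8), while 3.24% of genes were called higher. The Lgals3 results rested in part on Ctrl-1, whose 12 positive cells had 115 Lyz2 UMIs: without it the differences were 0.33 with an adjusted p of 0.11 and 0.29 with an adjusted p of 0.175. Without D2-2 that of Cd52 was 0.45 with an adjusted p of 0.076.

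**Figure D4:**
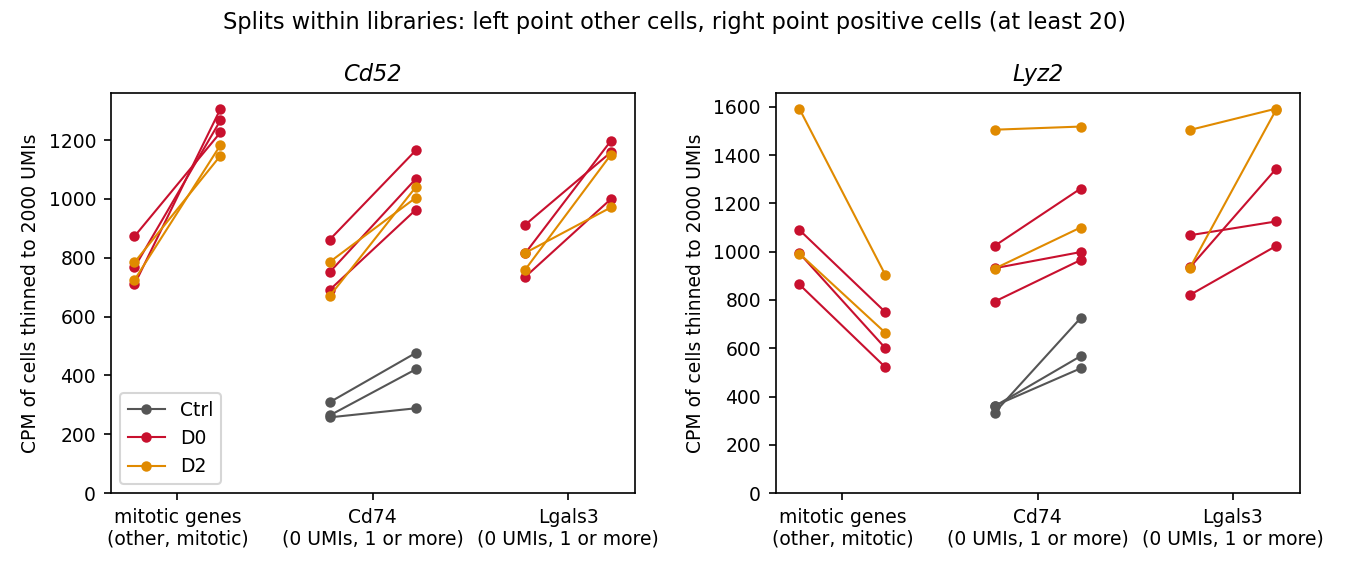
Level of Cd52 and Lyz2 (CPM in cells thinned to 2000 UMIs) in the other cells (left point) and the positive cells (right point) of each library, for mitotic, Cd74-positive and Lgals3-positive microglia-like cells, where at least 20 cells were positive. Every line of the mitotic split rises for Cd52, by 1.404 to 1.84 times, and falls for Lyz2, to 0.568 to 0.688 times.

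Among the cell classes, Cd52 was found in every class of leukocyte. Its level over libraries with at least 20 cells was 3711 ± 345 CPM (SD, n = 2) in lymphoid-like cells, 2880 ± 392 CPM (SD, n = 7) in neutrophil-like cells, 2431 ± 186 CPM (SD, n = 7) in dendritic cell-like cells and 2243 ± 206 CPM (SD, n = 7) in monocyte-like cells. The border-associated macrophage-like cluster had 2341 ± 2400 CPM (SD, n = 5), microglia-like cells 706 ± 339 CPM (SD, n = 8), endothelial-like cells 92.5 ± 70.1 CPM (SD, n = 8) and mural-like cells 43.6 ± 32.5 CPM (SD, n = 6). The ranges of the leukocyte classes above microglia-like cells overlapped with their neighbours in this order, as did those of endothelial-like and mural-like cells. The lowest monocyte-like value of 1905 CPM was above the highest microglia-like value of 1004 CPM, and the lowest microglia-like value of 272.9 CPM was above the highest endothelial-like value of 212 CPM. Astroglial-like cells had 60.7 CPM and 356.9 CPM in 2 libraries and ependymal-like cells 358.8 CPM in 1. At 2000 UMIs, Cd52 was found in 96.0% of monocyte-like, 97.3% of dendritic cell-like, 98.0% of neutrophil-like and 96.5% of lymphoid-like cells.

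Tested within libraries, Cd52 was above the microglia-like level by a log2 difference of 2.90 in neutrophil-like, 2.26 in dendritic cell-like and 1.83 in monocyte-like cells, with edgeR adjusted p of 1.39e-09, 4.26e-07 and 1.51e-05. The shares of genes called higher in these classes were 30.6%, 26.1% and 26.4%. In endothelial-like cells the difference was -3.23 ± 0.378 (SE) with an adjusted p of 2.98e-10, and in mural-like cells it was -4.24 ± 0.502 (SE) with an adjusted p of 6.07e-10, where 32.1% and 29.2% of genes were called lower. This fit gives each class 1 difference over all conditions, and the ratio to microglia-like cells was not the same in each: monocyte-like cells had 6.70 to 7.66 times the microglia-like Cd52 level in Ctrl libraries, 2.35 to 2.63 times in D0 libraries and 2.00 to 2.57 times in D2 libraries. In the Ctrl libraries alone the log2 difference of monocyte-like cells was 2.99 with an adjusted p of 1.03e-07.

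The border-associated macrophage-like cluster held cells of unlike Cd52 level. In the Ctrl libraries it had 926.6 CPM, 566.1 CPM and 445.9 CPM, in D0-1 5709 CPM and in D2-2 4058 CPM. Its cells with UMIs of at least 2 of Mrc1, Pf4, F13a1 and Cbr2, genes of macrophages at the borders of the brain, had 773.7 CPM, 465.9 CPM and 380.9 CPM of Cd52 in Ctrl and 577.5 CPM in D0-1. Its other cells had 6307 CPM in D0-1 and 4965 CPM in D2-2, together with 1954 CPM and 1178 CPM of Acp5, an acid phosphatase of osteoclasts and macrophages, and with 7.48 CPM of Mrc1 in D0-1. The cluster as a whole differed from microglia-like cells by 1.72 in log2 (adjusted p 9.40e-04), with 9.61% of genes called higher. With the cells of 2 or more tracer genes alone, the difference was 0.13 with an adjusted p of 0.96, and without D0-1 and D2-2 it was 0.57 with an adjusted p of 0.49, both chosen after seeing the data. The classes and conditions are crossed in those fits, and in the Ctrl libraries alone the cells with 2 or more tracer genes were above microglia-like cells by 0.89 with an adjusted p of 0.039.

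Lyz2 separated the classes more widely than Cd52. Monocyte-like cells had 27600 CPM and 32100 CPM in 2 Ctrl libraries, 33950 CPM, 34620 CPM and 34560 CPM in the D0 libraries and 35830 CPM and 32180 CPM in the D2 libraries, a mean of 32980 ± 2725 CPM (SD, n = 7). Neutrophil-like cells had 11550 ± 4715 CPM (SD, n = 7), the border-associated macrophage-like cluster 6625 ± 1876 CPM (SD, n = 5), dendritic cell-like cells 3486 ± 1606 CPM (SD, n = 7) and microglia-like cells 790 ± 380 CPM (SD, n = 8). Below them were endothelial-like cells with 77.8 ± 69.1 CPM (SD, n = 8), mural-like cells with 63.7 ± 50.8 CPM (SD, n = 6) and lymphoid-like cells with 17.2 ± 2.37 CPM (SD, n = 2). Lymphoid-like cells thus had the highest mean of Cd52 and the lowest mean of Lyz2, both from D0-2 and D0-3 alone. For Cd52 their lowest value of 3467 CPM was below the highest of neutrophil-like cells (3708 CPM) and of the border-associated macrophage-like cluster (5709 CPM). At 2000 UMIs, 3 of 114 lymphoid-like cells had UMIs of Lyz2. The mural-like mean leaves out D0-2, which had 18 such cells and 2382 CPM, since 214 of its 216 Lyz2 UMIs were in 1 cell.

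The log2 differences of Lyz2 from microglia-like cells were 5.58 in monocyte-like, 4.75 in neutrophil-like, 3.37 in border-associated macrophage-like and 2.42 in dendritic cell-like cells, with edgeR adjusted p of 4.72e-17, 1.42e-15, 7.13e-10 and 3.32e-08. In endothelial-like and mural-like cells they were -3.63 (adjusted p 3.47e-12) and -3.79 (adjusted p 6.26e-10). The neutrophil-like cells fell into 2 clusters with different Lyz2 levels. Cells with Camp, Ngp and Ltf, granule genes of neutrophils that are still maturing, had 16020 to 20790 CPM, and cells with Retnlg and Cxcr2, genes of mature neutrophils, had 3375 to 6522 CPM in libraries with at least 20 cells. For Cd52 these ranges were 2363 to 3145 CPM and 2752 to 4068 CPM, which overlapped. Ctrl-2, with the lowest neutrophil-like level of Lyz2 at 3393 CPM, held no cell of the cluster with Camp.

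**Figure D5:**
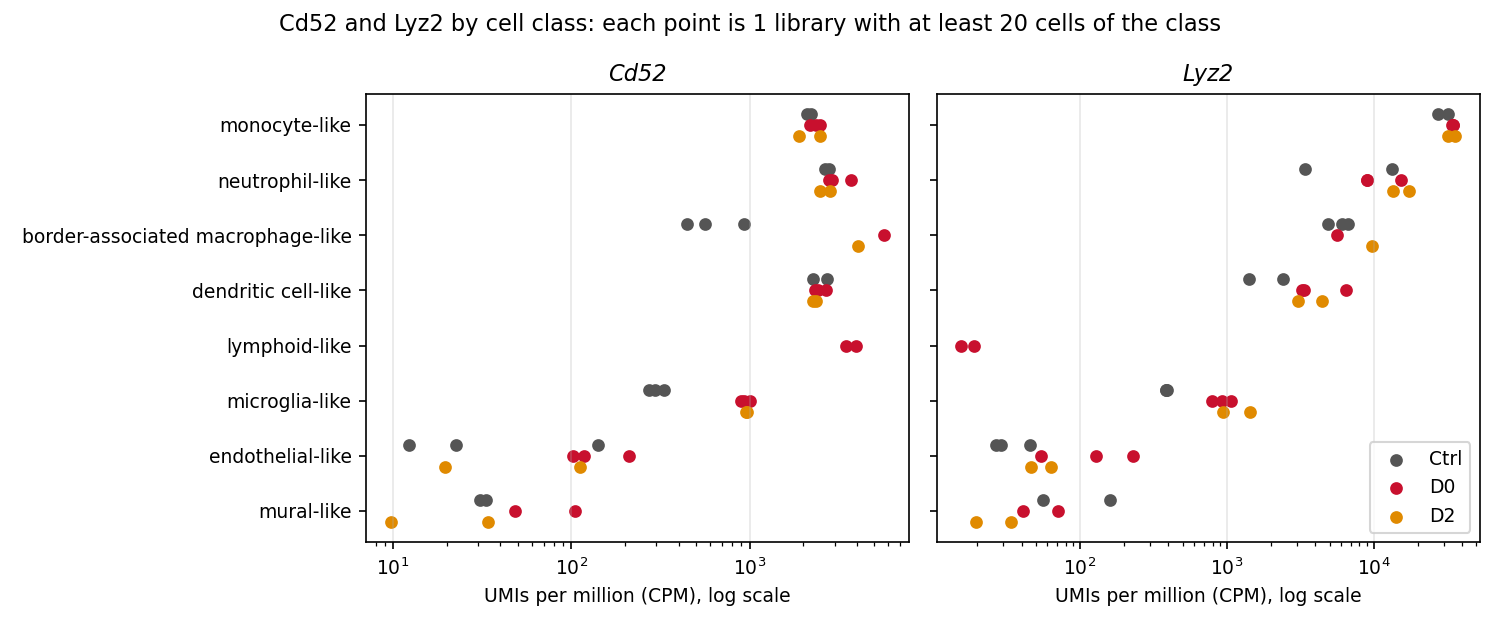
Level of Cd52 and Lyz2 (CPM, log axes) in the main cell classes, where each point is 1 library with at least 20 cells of the class. Lymphoid-like cells are at 3467 to 3955 CPM for Cd52 and at 15.6 to 18.9 CPM for Lyz2, while monocyte-like cells are at 27600 to 35830 CPM for Lyz2.

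Lyz1 was rare in every class. Over the 8 libraries there were 104 UMIs in 31 of 604 dendritic cell-like cells, 70 UMIs in 11 of 586 cells of the border-associated macrophage-like cluster, 59 UMIs in 36 of 521 monocyte-like cells and 31 UMIs in 30 of 1173 neutrophil-like cells. In the border-associated macrophage-like cluster, 1 cell of D2-2 held 43 UMIs and 1 cell of Ctrl-3 held 15, and a dendritic cell-like cell held 26. For comparison, the Lyz2 UMIs were 131916 beside 53 of Lyz1 in microglia-like cells. They were 124475 beside 59 in monocyte-like and 85933 beside 31 in neutrophil-like cells. Given the likeness of the 2 transcripts, how many Lyz1 UMIs came from Lyz2 was not tested, also for the differences that follow. The log2 differences from microglia-like cells were 6.49, 5.30, 5.35 and 4.40 for the border-associated macrophage-like, dendritic cell-like, monocyte-like and neutrophil-like classes, with edgeR adjusted p of 7.72e-10, 1.68e-09, 1.04e-08 and 6.33e-06. Endothelial-like cells had 1 Lyz1 UMI and mural-like cells 0, too few for a fold. At 2000 UMIs, Lyz1 was found in 0 of 114 lymphoid-like cells, which allows a share of up to 2.63% of cells with a UMI at this depth and sets no limit on the share that expresses the gene.

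The share of all myeloid UMIs that came from microglia-like cells differed between the 2 genes. Of the Cd52 UMIs of kept myeloid cells, microglia-like cells gave 65.3% to 82.4% (Ctrl), 73.4% to 77.4% (D0) and 69.3% to 87.3% (D2). Of the Lyz2 UMIs they gave 19.1% to 43.0% (Ctrl), 30.6% to 62.1% (D0) and 43.4% to 63.0% (D2), and in Ctrl-2 119 monocyte-like cells gave 65.2%. Over all kept myeloid cells Lyz2 was 823.6 CPM, 1814 CPM and 908.3 CPM in Ctrl and 1539 CPM, 1964 CPM and 2256 CPM in D0, and these ranges overlapped although those of microglia-like cells did not. Cd52 over all kept myeloid cells was 365.6 to 378.1 CPM in Ctrl and 1070 to 1186 CPM in D0.

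In the classes outside the myeloid contrast that chose the genes, no change between D0 and Ctrl passed the threshold. In neutrophil-like cells the log2 fold changes were 0.48 ± 0.342 (SE) for Cd52 (adjusted p 0.67) and 0.61 ± 0.663 (SE) for Lyz2 (adjusted p 0.78), and edgeR called 0.0219% of 4557 genes higher. The Lyz2 value rested on Ctrl-2, without which it was -0.09 with an adjusted p of 0.996. In endothelial-like cells they were 1.42 ± 0.611 (SE) for Cd52 (adjusted p 0.93) and 2.07 ± 0.485 (SE) for Lyz2 (adjusted p 0.37), where edgeR called 0.0122% of 8227 genes higher. With the replicate number as a block the Lyz2 value was 1.835 with an adjusted p of 0.012, and without D0-3 it was 2.47 with an adjusted p of 0.0039. Endothelial-like cells had 26.7 to 46.0 CPM of Lyz2 in Ctrl and 53.8 to 229.5 CPM in D0, that is 6.88% to 12.01% and 6.74% to 21.6% of the microglia-like level of the same library. For Cd52 these shares were 4.19% to 51.9% in Ctrl, the highest in Ctrl-2 with 141.7 CPM, where 30 of 37 Cd52 UMIs were in 1 cell, and 10.2% to 23.7% in D0. The part of free RNA in these values was not tested. Monocyte-like, dendritic cell-like and lymphoid-like cells gave no test of D0 against Ctrl here, the first 2 since they belong to the contrast that chose the genes and the last because the Ctrl libraries held 3, 18 and 4 of them. Cd52 in monocyte-like cells was 2090 to 2218 CPM in 2 Ctrl libraries and 2196 to 2470 CPM in 3 D0 libraries. In dendritic cell-like cells it was 2280 to 2701 CPM in 2 Ctrl libraries and 2318 to 2686 CPM in 3 D0 libraries. The values of Ctrl and D0 thus overlapped in both classes, as a description only.

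RNA of other classes in the microglia-like droplets was measured from genes those classes express. The summed level of 10 neutrophil markers in microglia-like cells was 7.13 to 32.8 CPM (Ctrl), 59.0 to 202.7 CPM (D0) and 52.2 to 198 CPM (D2), and 5 of the 9 tested were called higher in D0. Of these markers, S100a8, S100a9 and Retnlg were used to estimate neutrophil RNA, with a summed 5.93 to 170 CPM in microglia-like cells. Set beside their level in neutrophil-like cells, neutrophil RNA at that amount would carry at most 0.296% of the Cd52 and 0.936% of the Lyz2 of a library's microglia-like cells. Monocyte RNA was estimated from Ly6c2, Plac8 and Chil3, and border-associated macrophage RNA from Mrc1, Pf4, F13a1 and Cbr2. With both added, the amounts summed to 0.472% to 1.30% of Cd52 and 4.30% to 9.71% of Lyz2. For Lyz1 they summed to 9.61% to 49.8%. RNA of dendritic cell-like cells, of which there were 59 in Ctrl and 380 in D0, was not estimated.

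Genes with related roles were taken from 7 lists and tested in microglia-like cells against Ctrl. By edgeR, 12.3% of all genes were called higher and 7.43% lower in D0, and 10.8% higher and 7.73% lower in D2. At an unadjusted p under 0.05, 4217 of 12408 genes passed in D0 and 4049 in D2, both directions together. Counts of the lists at that limit are to be read beside these. For the counts by DESeq2, no share over all genes is given, so whether a list exceeds that share cannot be read from them. Of 17 tested genes of antimicrobial and granule proteins, 6 rose and 0 fell by edgeR in D0, and 6 rose and 0 fell in D2. At an unadjusted p under 0.05 these numbers were 13 and 0 in D0 and 11 and 1 in D2, and by DESeq2 they were 5 and 0, and 7 and 1. The 6 called by edgeR in D0 were Lcn2, S100a8, S100a9, Wfdc17, Wfdc21 and Plac8. Of these, Lcn2, Wfdc21, S100a8 and S100a9 were among the leading genes of the neutrophil-like cluster with Camp, Ngp and Ltf. Plac8 was among the monocyte genes used to estimate free RNA. The part of free RNA in the counts of this list was not tested. The alarmin genes S100a9 and S100a8, which are abundant in neutrophils, rose in D0 by 2.78 ± 0.736 and 2.61 ± 0.749 (log2, SE) with adjusted p of 0.0277 and 0.0375, and the neutrophil markers above rose with them. Mpeg1, which encodes the pore-forming protein perforin-2 of macrophages, rose in D2 by 0.88 ± 0.193 (adjusted p 0.012), from 636.3 CPM to 1083 CPM. Of 7 NADPH oxidase genes, 2 rose in D0 and 1 in D2 by edgeR, and 3 and 2 did so by DESeq2 as well as at an unadjusted p under 0.05, while 0 fell in any of these. Cybb, the catalytic subunit of the phagocyte oxidase, had 4.34 CPM in Ctrl, 30.5 CPM in D0 and 47.0 CPM in D2, and rose by 3.02 ± 0.233 (adjusted p 2.33e-05) and 3.54 ± 0.248 (adjusted p 1.24e-05). Cyba, its membrane partner, rose by 0.40 in D0 (adjusted p 0.0365). Of 15 lysosomal hydrolases, the compartment in which lysozyme acts, 2 rose in D0, a share close to that over all genes, and 3 rose in D2 by edgeR. By DESeq2 5 and 4 rose, and at an unadjusted p under 0.05 6 and 5 did. In each of them 0 fell by edgeR or DESeq2 and 1 fell at an unadjusted p under 0.05. Ctsh, a cathepsin, rose by 0.73 in D0 (adjusted p 0.012) and 0.78 in D2 (adjusted p 0.014), and Gusb, the β-glucuronidase, by 0.72 (adjusted p 0.0072) and 0.57 (adjusted p 0.032). Ctsb, another cathepsin, rose by 0.68 in D2 (adjusted p 0.043). Between D2 and D0, 0 of the 97 genes of these lists were called by edgeR or by DESeq2, with 5 higher and 1 lower at an unadjusted p under 0.05.

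In a list of other GPI-anchored proteins of the leukocyte surface most genes tested rose. Of 14 surface genes tested beside Cd52, 10 rose and 0 fell in D0, and 9 rose and 0 fell in D2, by edgeR and by DESeq2 alike in number and with 0 lower at an unadjusted p under 0.05, with median log2 fold changes of 1.00 and 1.38 beside medians of -0.05 and -0.03 over all genes. The list holds Fcgr4, an activating receptor for IgG that spans the membrane in the mouse and whose human relative FCGR3B is GPI-anchored. Without it 9 of 13 genes rose in D0 and 8 of 13 in D2. Among the genes that rose in both, Cd59a, Ly6c2 and Bst1 were near the limit of detection. They had 0.0378 to 0.189 CPM in Ctrl libraries and 0.313 to 0.942 CPM in D0 libraries. Ly6c2 was also among the monocyte genes used to estimate free RNA. The counts and medians of this list rest in part on such low levels. Fcgr4 itself rose by 1.25 ± 0.159 in D0 (adjusted p 5.66e-04) and 1.396 ± 0.174 in D2 (adjusted p 5.65e-04). Bst2, the virus-tethering protein tetherin, had 180.1 CPM in Ctrl, 285 CPM in D0 and 297 CPM in D2, with rises of 0.87 and 0.83 (adjusted p 4.19e-04 and 0.0011). Cd48, a ligand of the receptor CD244, rose by 0.58 in both (adjusted p 0.018 and 0.026), and Cd14, the co-receptor for lipopolysaccharide, by 0.72 in D0 (adjusted p 0.018). Over all genes, edgeR called 12.3% higher and 7.43% lower in D0, and 10.8% higher and 7.73% lower in D2. Of 26 genes of GPI anchor assembly, 0 rose and 1 fell in D0, and 1 rose and 4 fell in D2 by edgeR. By DESeq2 these numbers were 0 and 2, and 1 and 5, and at an unadjusted p under 0.05 they were 0 and 4, and 2 and 7. Pigm, a mannosyltransferase of the pathway, fell by 0.50 on the log2 scale in D0 (adjusted p 0.028).

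Of 8 Siglec receptor genes, the family that includes the receptor of soluble CD52, 1 rose and 1 fell in D0, and 2 rose and 3 fell in D2. The share that rose in D0 was close to the 12.3% over all genes. Siglecg of this list was not called, with 5.96 to 6.62 CPM in Ctrl libraries, 5.92 to 6.23 CPM in D0 libraries, and 5.77 CPM and 5.45 CPM in D2-1 and D2-2. Siglece, which encodes an inhibitory Siglec of mouse myeloid cells, had 63.3 CPM in Ctrl, 29.2 CPM in D0 and 21.0 CPM in D2, and fell by 0.92 ± 0.253 (adjusted p 0.032) and by 1.48 ± 0.298 (adjusted p 0.0078) on the log2 scale. Siglech, a microglial marker, fell by 0.52 on the log2 scale in D2 (adjusted p 0.011). Of 10 myeloid transcription factors, 2 rose and 2 fell in D0, and 1 rose and 3 fell in D2. Cebpb rose by 0.96 in D0 (adjusted p 0.031), and Maf fell by 0.90 in D0 (adjusted p 0.0029) and by 1.08 in D2 (adjusted p 0.0022) on the log2 scale, from 672.1 CPM in Ctrl to 314 CPM and 295.8 CPM.

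Over 23 sums of a class in a condition with at least 50 cells, the genes most like Cd52 by Pearson correlation of log2(CPM + 10) were Rac2 (r 0.956), Coro1a (r 0.952), Ptprc (r 0.942), Glipr1 (r 0.939) and Cotl1 (r 0.933). Ptprc encodes CD45, found on all leukocytes, and Rac2 and Coro1a encode a GTPase and an actin-binding protein of blood cells. In microglia-like cells Rac2 was 144.9 CPM in Ctrl and 191.4 CPM in D0, and Ptprc 316.9 CPM and 332.3 CPM, closer together than the Cd52 levels. The genes most like Lyz2 were Igsf6 (r 0.954), Cybb (r 0.9502), Milr1 (r 0.944), Pirb (r 0.943) and Ccl6 (r 0.937), the latter a chemokine gene of myeloid cells. Cd52 and Lyz2 had an r of 0.748 with each other, and Lyz1 had 0.555 with Cd52 and 0.682 with Lyz2. The sums of a class share libraries, and these values describe the pattern only.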

How the data were processed

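The authors deposited, for each of 9 10x Genomics 3' libraries, raw UMI counts per gene and barcode from Cell Ranger with the mouse genome mm10. The submitters' notes name Cell Ranger 3.1.0, while the file headers give 3.1.0 only for D2-3, Ctrl-3 and Ctrl-2 and 3.0.2 for the 6 others. These deposited counts were whole numbers without normalization. Among the 8 libraries compared, version 3.1.0 occurs only in Ctrl, so that version and treatment are partly confounded. With a term for the version, comparisons with Ctrl rest on Ctrl-1, the only Ctrl library of 3.0.2.

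Following the filter of the study, a barcode was kept if it had between 500 and 20000 UMIs, 200 or more genes and no more than 10% of UMIs from mitochondrial genes, and no doublets were removed, a step that the methods of the study do not name. Leiden clusters (scanpy 1.11.5 with leidenalg 0.10.2) were drawn on 10 principal components of 3000 variable genes, with 20 neighbours and a resolution of 0.6, without Cd52, Lyz2 and Lyz1, and the myeloid cells were clustered again. Clusters were named "-like" where at least 3 markers of a class were raised over the other cells, and as microglia-like where no class was and at least 3 microglia markers were at 100 CPM or more, and rebuilt names can differ from those of the study. A cluster of low UMIs without such markers stayed unnamed and was left out of microglia-like cells. Cells of D2-3 and barcodes above the UMI limit were placed by their 30 nearest neighbours.

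UMIs were summed per library, since cells are not replicates, and tested by the quasi-likelihood test of edgeR 4.0.16 in R 4.3.3, after filterByExpr and TMM scaling, with Benjamini-Hochberg adjustment over all genes tested, with a threshold of 0.05. SE are those of log2 fold changes. Ctrl, D0 and D2 shared 1 fit, from which no p is given for the 3 genes, since each comparison shares libraries with the one that chose them. Classes and splits were tested with the library as a block, in libraries with at least 20 cells for classes. The tests were checked on simulated data. The fits had no D2-3, as in the study, except in 1 alternative. Shares of positive cells have Wilson 95% intervals, and a count of 0 was read as up to 3 cells.

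The members and lists were chosen with earlier results of these data known. Named genes are the 3 members and, from each list, up to 4 called genes with the largest change and at least 20 CPM. The 5 genes most like Cd52 and Lyz2 are named too, and further genes of a list where they limit its reading. The labels number the libraries. The deviations of same-numbered Ctrl and D0 libraries from their group means had correlations of 0.419, 0.2 and 0.177. Those of unlike-numbered Ctrl and D0 libraries were -0.387 to 0.299, and those of same-numbered libraries with D2 were -0.128 to 0.262. The main fits of Ctrl, D0 and D2 took no libraries as pairs, and the replicate number was a block only as an alternative. Gene positions are from GENCODE vM21, which matches the build. Protein sequences were not used here. The result of 1 further gene is not reported here. The alternatives were DESeq2 1.42.0, no filter on low counts, only the groups compared, the replicate block, the Cell Ranger version as a term, D2-3 included, no upper limit on UMIs, cells thinned to 1000, 2000 or 4000 UMIs, mitotic cells left out, all kept myeloid cells, other clusterings and cell minimums, and each library left out in turn. A further 3, on the border-associated macrophage-like cluster, were chosen after seeing the data.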

Additional observations from a re-analysis of the deposited data

Results flagged for a closer look

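In D2-3, the library left out of the comparisons, Cd52 was 2179 CPM in the microglia-like cells, above the 954.8 CPM and 961.4 CPM of the other D2 libraries and above every Ctrl library. Of these D2-3 cells 88.8% were in the mitotic cluster led by Top2a, against 12.3% and 16.9% in D2-1 and D2-2. Barcodes above 20000 UMIs entered no comparison, and those placed with microglia-like cells had at least 1169 CPM of Cd52 in D0 and 1213 CPM in D2-1 and D2-2, against 310.9 to 386.2 CPM in Ctrl. Their Lyz2 level was at least 782.9 CPM in D0 and 850.1 CPM in D2-1 and D2-2, against 465.2 to 698.2 CPM in Ctrl, while D2-3 had 1924 CPM of Cd52 and 235.9 CPM of Lyz2 in such barcodes. The unnamed myeloid cluster of low UMI counts also entered no comparison of microglia-like cells, and its Cd52 level was at least 1350 CPM in D0 and 1444 CPM in D2-1 and D2-2, with 2690 CPM in D2-3, against 577 to 692.4 CPM in Ctrl. These values were looked at because they lie outside the cells compared and above the Ctrl level, and the differences were not tested.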

How the results depend on the processing

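Of 527 results under an alternative, 490 kept their direction and side of the threshold or moved by less than the spread. Those that did not follow as log2 fold changes, and their cause was not tested unless the setting names it. In D0 against Ctrl, Lyz2 was 1.19 without an upper limit on UMIs and 0.89 over all kept myeloid cells, and Lyz1 was 0.97 over those cells. In D2 against Ctrl, Cd52 was 2.49 with D2-3, 1.605 at 2000 UMIs and 1.64 without mitotic cells. Lyz2 was 1.345 with D2-3 and 0.92 over all kept myeloid cells. Lyz1 was 2.505 with the replicate block, 2.52 with a term for the Cell Ranger version, and 1.44 to 3.21 with 1 library left out, the lowest without D2-2. In D2 against D0, Cd52 was 0.61 and Lyz2 -0.14 with D2-3, and with 1 library left out Lyz2 was -0.11 to 0.57 and Lyz1 -0.45 to 1.31, negative only without D2-2. In neutrophil-like cells Lyz2 in D0 against Ctrl was -0.0906 (without Ctrl-2) to 2.26 with 1 library left out. In endothelial-like cells it passed the threshold without a filter (2.11), by DESeq2 (2.06), with the replicate block (1.835) and without D0-3, over a range of 1.46 to 2.47, and Cd52 passed without a filter (1.47). The replicate block changed no other call given for the 3 genes. The border-associated macrophage-like difference in Cd52 was 0.13 with tracer genes and 0.57 without D0-1 and D2-2. The Lgals3 difference was 0.24 at 1000 UMIs and 0.67 in Ctrl alone for Cd52, and 0.44 at 1000 UMIs and 0.81 by DESeq2 for Lyz2, none past the threshold, and with 1 library left out 0.33 to 0.54 and 0.29 to 0.82. Differences in the share of positive cells were smaller without thinning, at 16.1 (Cd52) and 19.4 (Lyz2) percentage points for D0 and 10.2 and 16.1 for D2, and for Lyz2 in D0 27.9 at 1000 UMIs and 25.7 at 4000.

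Counts over all genes moved more. In D0 against Ctrl 452 rose and 44 fell with D2-3, 973 and 379 at 2000 UMIs, and 345 fell with the version term, against 1522 and 922. In D2 against Ctrl 862 rose and 547 fell at 2000 UMIs, 865 and 336 with that term, and 389 fell with D2-3, against 1344 and 959. In D2 against D0, 23 rose and 16 fell without a filter, against 0. Of 693 results of the named list genes, 544 kept their call, 149 lost it and 0 changed direction. Lyz1 is limited by its few UMIs, Lgals3-positive cells of Ctrl by their number, and the split of reads between Lyz1 and Lyz2 by their likeness.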

Other observations

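The cells of the border-associated macrophage-like cluster with few of its tracer genes, 65 in D0-1 and 17 in D2-2, were read further after their values had been seen. In D0-1 they had 1620 CPM of Rac2, 872.2 CPM of Ms4a7, 1692 CPM of Cd74 and 39.9 CPM of the microglial gene P2ry12, with 0 CPM of Lyve1. The cells of the same cluster in D0-1 with 2 or more tracer genes, 8 in all, had 171.1 CPM of Rac2, 1.16e+04 CPM of Cd74, 556.1 CPM of P2ry12 and 0 CPM of Acp5. In D2-2 the order of some genes was the other way. Its cells with few tracer genes had 1.2e+04 CPM of Cd74 and 110.7 CPM of P2ry12, against 8655 CPM and 57.7 CPM in its 3 cells with 2 or more, while Rac2 was 996.1 CPM against 461.6 CPM. No test was run, as each group is 1 library.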
